A study of Mus musculus with 19 samples.

Results

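Chromatin accessibility was followed at the 4 Sall genes, Sall1, Sall2, Sall3 and Sall4, while mouse neural stem cells differentiated into astrocytes with or without TNF. A peak was assigned to a Sall gene when its centre lay in the gene body or within 100 kb of either end of the gene, and 44 of the 90154 peaks met this rule. Of these, 8 belonged to Sall1, 15 to Sall2, 14 to Sall3 and 7 to Sall4. The family was picked because a peak about 65 kb from Sall3 was among the most strongly closing regions between undifferentiated cells and 24 h, so that comparison is only described for the Sall peaks and gives no test of them. Each peak is a window of about 500 bp, and its value is the number of reads in the window after normalisation for library size.

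Sall proteins are zinc finger transcription factors of the nucleus, related to the spalt gene of the fruit fly, and they act mostly as repressors that recruit the NuRD complex, which removes acetyl groups from histones and remodels nucleosomes. Sall1 is needed for kidney development and in the brain is best known from neural progenitors and microglia, Sall3 has roles in progenitors of the nervous system that overlap with those of Sall1, Sall2 is linked to closure of the neural tube and of the eye, and Sall4 keeps embryonic stem cells undifferentiated. ATAC-seq measures where the transposase can enter chromatin, which marks active gene starts and distal regulatory elements, and it does not measure how much RNA a gene makes. A peak near a gene need not act on that gene.

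Mouse chromosome positions are those of GRCm38, and the gene bodies and starts came from RefSeq (GRCm38.p6). Sall1 spans chr8:89027242-89044162 and Sall2 chr14:52311177-52328670, both on the minus strand. Peaks are called below a gene when they lie at lower coordinates and above it when they lie at higher coordinates, so that above is upstream for Sall1 and Sall2. RefSeq promoter windows of 300 bases were at hand for Sall1 and Sall2, and those that overlap a peak are shown because the accessibility of these starts is followed in the results. They run 5′ to 3′ along the gene, and capitals mark CG dinucleotides.

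Sall1 start, minus strand, chr8:89042813-89043112: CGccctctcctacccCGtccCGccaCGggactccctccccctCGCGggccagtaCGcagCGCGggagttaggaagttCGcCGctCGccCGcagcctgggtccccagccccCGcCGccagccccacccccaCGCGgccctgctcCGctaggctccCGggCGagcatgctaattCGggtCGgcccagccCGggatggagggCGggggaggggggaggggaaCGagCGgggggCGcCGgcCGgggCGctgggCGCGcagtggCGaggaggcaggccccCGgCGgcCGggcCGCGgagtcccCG

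Sall2 inner start, minus strand, chr14:52316274-52316573: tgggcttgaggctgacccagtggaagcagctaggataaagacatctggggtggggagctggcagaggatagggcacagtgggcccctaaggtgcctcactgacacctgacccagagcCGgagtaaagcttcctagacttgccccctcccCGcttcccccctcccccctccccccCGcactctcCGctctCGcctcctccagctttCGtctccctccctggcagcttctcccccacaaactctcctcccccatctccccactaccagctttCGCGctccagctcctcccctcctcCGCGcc

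The Sall1 window shares 287 bases with the peak at chr8:89042599-89043099, whose centre lies 13 bp from the annotated start. It has 39 CG dinucleotides and a GC content of 79.7%, and 95.6% of the 32851 RefSeq promoter windows have fewer CG dinucleotides. The Sall2 window shares 165 bases with the peak at chr14:52315938-52316438, centred 135 bp from the start, and has 10 CG dinucleotides, more than 56.5% of the windows, and a GC content of 65.0%. Of the motifs searched on both strands, the Sall1 window holds 1 GC box (GGGCGG, found in 35.7% of all windows), whereas neither window holds TATAAA (13.6% of all windows), the AP-1 letters TGANTCA (7.81%), the NF-kB consensus (4.79%) or the E-box CAGCTG (16.3%). Overlaps between motifs were not removed. These matches describe letters only and say nothing of binding.

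The cells were NSCs from the ventricular zone of single brains of wild-type C57BL/6J embryos at embryonic day 14, grown as neurospheres (NSPs) with EGF and then plated in medium with fetal bovine serum, without or with TNF at 50 ng/ml, an inflammatory cytokine. The 19 ATAC-seq libraries formed 6 groups, namely NSPs without TNF at 0 h (3 libraries), untreated cells at 24 h (3), TNF-treated cells at 24 h (3), untreated cells at 72 h (3), TNF-treated cells at 72 h (3) and untreated cells at 1 week (4). The labels do not say which libraries share a brain or a culture, so p-values measure only the spread between these libraries. In bulk libraries, fewer cells with an open site and less opening per cell cannot be told apart.

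Reads in peaks ranged from 9640256 to 39349111 per library, with the NSPs deepest (28636739 to 39349111). All 44 Sall peaks passed the filter on low reads, and 41 of them had at least 10 reads in each library. NSP replicate 1 stood apart from the other NSPs, with a Spearman correlation over all peaks of 0.923 and 0.913 with replicates 2 and 3 against 0.982 between those, and comparisons with NSPs are therefore also given without it. Library names carry a tag in both 72 h groups and at 1 week that is absent from NSPs and 24 h. Where 72 h or 1 week is set against NSPs or 24 h, this tag and the stage cannot be told apart. As a check of the labels, peaks within 1 kb of a gene end were summed over marker lists. The sum for 7 of 8 neural stem and progenitor genes (Pax6 had none) was 6532 to 7532 in NSPs and 3553 to 4325 at 24 h. It was 2912 to 3507 at 72 h and 4203 to 4343 at 1 week, so it was lowest at 72 h. That for 7 of 8 astrocyte genes (Aqp4 had none) was 1833 to 1969 in NSPs and 1750.2 to 2053 at 24 h. It was 2018 to 2139 at 72 h and 1514 to 1709 at 1 week. At 1 week the astrocyte sum lay wholly below NSPs, so this list does not bear out the 1 week label. The sum for 3 of 6 oligodendrocyte genes (Sox10, Mbp and Mog had none) was 2637 to 3207 in NSPs and 1089 to 1242 at 1 week, that for 4 of 6 neuron genes (Rbfox3 and Dcx had none) was 1747 to 2038 and 1467 to 1837, and that for 2 of 6 microglia genes (Aif1, Cx3cr1, Csf1r and Itgam had none) was 115 to 183 and 53.0 to 74.0. The part of other cell types in the Sall results was not tested.

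Summed accessibility went in different directions at the 4 Sall genes. NSPs were the group of highest mean for 21 of the 44 peaks and 1 week for 12, which is 47.7% and 27.3% of them, beside 33.0% and 27.7% of all peaks tested. The ratio of the highest to the lowest group mean had a median of 2.09 over the Sall peaks and 2.34 over all. It was above 2 at 27 Sall peaks and above 4 at 8, or 61.4% and 18.2%, beside 60.8% and 24.5% of all peaks. Summed over its 14 peaks, Sall3 went from 5047 ± 261 (SD, n = 3) normalised reads in NSPs to 2424 ± 136 at 24 h, 2365 ± 119 at 72 h and 2520 ± 69.1 at 1 week (n = 4). The Sall1 sum went the other way, from 2328 ± 368 in NSPs to 2355 ± 59.3 at 24 h. It was 2618 ± 94.0 at 72 h and 3716 ± 317 at 1 week. This rise rested on the peak 11.5 kb below the gene, with means of 274 in NSPs and 1971 at 1 week. The mean of that peak rose by more than the Sall1 sum did. The other Sall1 peaks, when summed, therefore had no higher mean at 1 week than in NSPs. Sall4 went from 2066 ± 95.3 to 1521 ± 170 at 24 h, 1181 ± 65.1 at 72 h and 1166 ± 54.3 at 1 week, and Sall2 from 6789 ± 323 to 5637 ± 252, 5477 ± 118 and 7464 ± 337. With the deposited scaling, the libraries of NSPs and 1 week do not overlap in any of these 4 sums. At Sall2 they were close, with at most 7159 in NSPs and at least 7231 at 1 week. Scaling by total reads moves the median of all peaks at 1 week against NSPs by -0.07, and the sums were not rescaled. The narrow gap at Sall2 depends on the scaling and is not evidence of a rise. Of the 15 Sall2 peaks, 6 lie within other genes, among them those 53.3 and 31.7 kb below, with NSP means of 1677 and 1697.

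Counts of calls were taken from limma-trend over all 88919 peaks tested, with a call at an adjusted p under 0.05. At 24 h, 6 Sall peaks were called higher and 18 lower than in NSPs, where 24.2% of all peaks were called higher and 23.0% lower, and these counts are a description because the family was picked from this comparison. At 72 h, 9 rose and 18 fell against NSPs (28.3% and 30.9% of all peaks), and at 1 week 15 rose and 21 fell (33.7% and 33.6%). These comparisons share the NSP libraries with the one from which the family was picked. The counts and medians also include the picked distal Sall3 peak and its close neighbour, so they too are a description. The 44 peaks had median log2 fold changes of -0.29 for 24 h, -0.33 for 72 h and -0.25 for 1 week, beside -0.07, -0.06 and 0.01 over all peaks. Without NSP replicate 1, the counts were 7 higher and 17 lower at 24 h (25.2% and 23.7% of all peaks). They were 9 and 21 at 72 h (28.9% and 31.7%), and 15 and 21 at 1 week (34.6% and 33.6%). Scaling by total reads moves the median of all peaks up by 0.19 at 24 h and 0.27 at 72 h. It gives 7 higher and 11 lower at 24 h (29.4% and 13.9% of all peaks) and 13 and 12 at 72 h (36.7% and 20.8%). At 1 week the counts were 13 and 21 with total reads (31.1% and 35.9%) and 11 and 22 with loess scaling (33.1% and 33.1%).

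**Figure D1:**
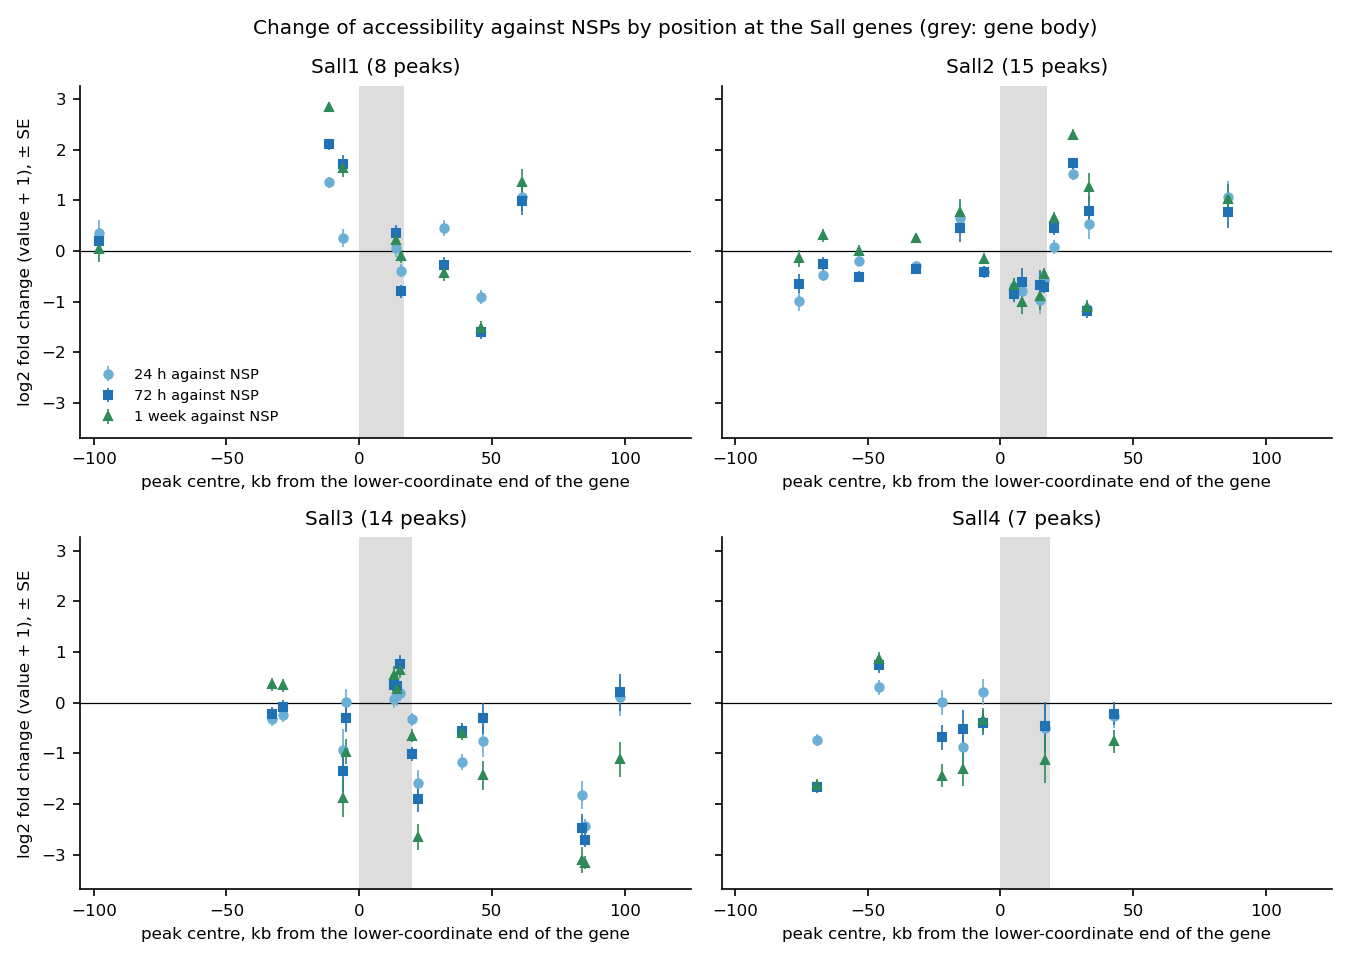
Log2 fold change against NSPs (y axis, on log2 of value + 1, bars are the SE) of the 44 Sall peaks at 24 h, 72 h and 1 week, by the distance of the peak centre in kb from the lower-coordinate end of its gene (x axis), with the gene body in grey. The Sall1 peak 11.5 kb below the gene reached 2.84 at 1 week, and the Sall3 peaks 63.9 kb and 65.2 kb above the gene reached -3.11 and -3.16.

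Sall1 had the most strongly opening peak of the family, 11.5 kb below the gene (chr8:89015488-89015988), on its downstream side. Normalised reads there were 251, 269 and 300.3 in NSPs, 789, 648 and 679 at 24 h, 1190.3, 1145 and 1207 at 72 h and 1819, 1774, 2251 and 2042 at 1 week. Each stage lay wholly above the one before it. The log2 fold change against NSPs was 1.36 ± 0.11 (SE) at 24 h, 2.11 ± 0.11 at 72 h (limma-trend adjusted p = 5.82e-16) and 2.84 ± 0.10 at 1 week (adjusted p = 3.89e-20), a 7.21-fold rise of the mean. Alone, this peak held 12.0% ± 2.44 (SD, n = 3) of the reads of the 8 Sall1 peaks in NSPs and 53.0% ± 1.68 (n = 4) at 1 week.

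In untreated cells, the neighbouring peak 5.9 kb below Sall1 (chr8:89021058-89021558) stood apart from NSPs only from 72 h. The step from 24 h to 72 h was not tested. It had 56.1, 88.1 and 88.4 normalised reads in NSPs and 94.5, 69.3 and 116 at 24 h, groups that overlap, then 233, 254 and 273 at 72 h and 227, 245, 244 and 232 at 1 week, both wholly above NSPs. Against NSPs the log2 fold change was 1.72 ± 0.18 at 72 h (limma-trend adjusted p = 3.37e-09) and 1.63 ± 0.17 at 1 week (adjusted p = 1.36e-09), and 1.51 and 1.42 without NSP replicate 1. The low peak 44.3 kb above Sall1 also rose, from 30.4 ± 6.17 in NSPs to 79.5 ± 12.8 at 1 week, by 1.36 ± 0.25 on the log2 scale (adjusted p = 2.20e-05).

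The start of Sall1 did not share the rise of these distal peaks. The gene has 3 annotated starts, of which this one, at 89042862, also lies in the gene model Gm3134. Its normalised reads were 1239, 786 and 809 in NSPs, 709, 785 and 633 at 24 h, 479, 533 and 591 at 72 h and 891, 783, 924 and 847 at 1 week. NSP replicate 1 was far above the other NSPs, the 72 h libraries were the lowest, and 1 week lay wholly above 72 h. The start fell at 72 h, with a log2 fold change of -0.79 ± 0.13 (limma-trend adjusted p = 9.77e-06), or -0.58 without NSP replicate 1, and rose again from 72 h to 1 week by 0.69 ± 0.13 (adjusted p = 9.27e-05), a rise of 0.22 that was not called with loess scaling. At 1 week the difference from NSPs was -0.10 ± 0.13, not called, but with loess scaling it was -0.25 and was called lower (limma-trend adjusted p = 0.0218). For 24 h the difference was -0.39 with all NSPs and -0.17 without replicate 1. Of 13342 peaks within 1 kb of a gene end, 53.7% fell at 72 h against NSPs and 54.0% rose from 72 h to 1 week. Their median log2 fold changes were -0.39 and 0.39, so a fall and return of this kind was common at gene ends. The Sall1 start peak lies 1.31 kb from an end and is not among them.

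Further upstream, the peak 29.1 kb above Sall1 closed. It had 709, 561 and 624 normalised reads in NSPs, 302, 391 and 318 at 24 h, 198, 203 and 218 at 72 h and 196, 231, 259.7 and 194 at 1 week, with NSPs wholly above all later stages. Its log2 fold change was -1.60 ± 0.14 at 72 h (limma-trend adjusted p = 1.09e-10) and -1.52 ± 0.13 at 1 week (adjusted p = 3.83e-11). The peak 15.0 kb above Sall1 had its highest untreated mean at 24 h (214 ± 25.1) and fell below NSPs (157 ± 27.0) at 1 week, to 115 ± 3.69. The remaining Sall1 peaks, 1 in the gene body 3.04 kb from an end and 1 lying 98.0 kb below, kept group means between 121 and 174 and between 80.2 and 109.9, and neither was called in any comparison. The latter is the Sall peak nearest to the limit of 100 kb, with means of 92.5 in NSPs, 110 at 24 h and 92.6 at 1 week, and the nearest peak beyond the limit, 104 kb below Sall1, had 18.0, 58.1 and 44.8.

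Sall2 showed closing inside the gene and opening just upstream of it. The peak 10.1 kb above the gene (chr14:52338507-52339007) had 168, 176 and 199 normalised reads in NSPs, 528, 539.9 and 495 at 24 h, 638, 636 and 535 at 72 h and 841, 821, 962 and 953 at 1 week. NSPs lay wholly below all later stages and 1 week wholly above them. It rose by 1.73 ± 0.11 on the log2 scale at 72 h (limma-trend adjusted p = 1.48e-13) and by 2.30 ± 0.11 at 1 week (adjusted p = 1.65e-17).

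Accessibility went down at the inner annotated start of Sall2 and at the peak nearest to its outer start. No peak covers the outer start itself, which lies 747 bp from the edge of that peak. At the inner start, the peak shown with its sequence had 330.0, 298 and 340.2 normalised reads in NSPs, 197, 251 and 156 at 24 h, 154, 175 and 210.3 at 72 h and 225, 183, 191 and 212 at 1 week, so NSPs were wholly above every later untreated stage. The log2 fold change was -0.85 ± 0.15 at 72 h (limma-trend adjusted p = 2.51e-05) and -0.67 ± 0.14 at 1 week (adjusted p = 0.000163). Near the outer start, the peak centred 997 bp inside the gene (chr14:52327423-52327923) had 734, 668 and 739.6 in NSPs, 478, 488 and 466 at 24 h, 379.6, 464 and 468 at 72 h and 509, 478, 528 and 585 at 1 week. It fell as well, with log2 fold changes of -0.71 ± 0.11 at 72 h (adjusted p = 2.51e-06) and -0.45 ± 0.10 at 1 week (adjusted p = 0.000367), NSPs again being wholly above. Falls at 72 h were common at gene ends, where 53.7% of peaks within 1 kb of an end were called lower. The median of those peaks was -0.39 at 72 h and 0.01 at 1 week. The other pair of peaks in the gene body, lower in reads, had means of 84.0 and 146 in NSPs and 41.6 and 71.3 at 1 week, and both fell at 1 week (-0.99 ± 0.25 and -0.89 ± 0.27), although at the second of them NSP replicate 1, at 67.8, lay within the later groups.

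A pair of neighbouring windows 15.2 kb and 16.0 kb above Sall2, 240 bp apart, moved in opposite directions. The first had 432, 345 and 429 normalised reads in NSPs and 194, 188, 165 and 202 at 1 week, and fell with a log2 fold change of -1.10 ± 0.13 (limma-trend adjusted p = 9.12e-09). The second had 16.9, 19.8 and 20.6 in NSPs and 42.3, 50.7, 63.8 and 35.4 at 1 week, and rose by 1.26 ± 0.28 (adjusted p = 0.000273). The groups do not overlap at either window. The second rests on few reads, at least 16 and at most 76 in any library.

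All 6 peaks below Sall2 lie within other genes, namely Chd8, a chromatin remodeller, Tox4 and Mettl3, a writer of RNA methylation, and 3 of them are within 1 kb of an end of such a gene. Position alone does not assign them to Sall2. At the peak 31.7 kb below Sall2, at the ends of Rab2b and Tox4, normalised reads were 1748, 1614 and 1729 in NSPs, 1332, 1319 and 1349.8 at 72 h and 1877, 2017, 2304 and 1927 at 1 week, lowest of these at 72 h and highest at 1 week, with no overlap. At 72 h the log2 fold change against NSPs was -0.35 ± 0.10 (limma-trend adjusted p = 0.00524), but by loess scaling the value was 0.12 and by total reads scaling -0.08, which was not called. At 1 week it was 0.26 against NSPs, ran from 0.06 to 0.29 over the settings, and was not called in all of them. The other 5 had NSP means from 43.7 to 1677 and 1 week means from 73.7 to 1689.7. At 1 week those 66.6 and 15.3 kb below were called higher than in NSPs (0.31 ± 0.12 and 0.77 ± 0.26), the latter not without NSP replicate 1 (0.50), and those 75.8, 53.3 and 6.1 kb below were not called. Upstream of the gene, the peaks 2.6 and 68.1 kb above it rose at 1 week, from means of 254 and 21.9 to 399 and 44.5 (0.65 ± 0.13 and 1.03 ± 0.29).

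Sall3 spans chr18:80966989-80987021, and the strand of Sall3 and Sall4 was not in the tables used here. Its distal peak 65.2 kb above the gene (chr18:81051959-81052459) had the highest mean of the family in NSPs and its own lowest mean at 1 week. Normalised reads were 1655, 2200.4 and 2414 in NSPs, 408, 423 and 319 at 24 h, 314, 321 and 307 at 72 h and 225, 207, 253 and 238 at 1 week. The loss was largely complete at 24 h, every stage after it lay wholly below NSPs, and 1 week lay wholly below 72 h. The peak was picked for this loss, so the log2 fold changes of -2.44 ± 0.13, -2.71 ± 0.13 and -3.16 ± 0.12 (SE) at 24 h, 72 h and 1 week are given without a test, and without NSP replicate 1 they were -2.60, -2.87 and -3.32. Of the reads at the 14 Sall3 peaks, it held 41.2% ± 5.79 (SD, n = 3) in NSPs and 9.17% ± 1.00 (n = 4) at 1 week. Without it, the sum over the other 13 peaks went from 2957 ± 141 in NSPs to 2040 ± 82.3 at 24 h and 2289 ± 85.0 at 1 week.

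Other Sall3 peaks closed as well. The window 63.9 kb above the gene lies 749 bp from the distal peak and had 204, 255 and 248 normalised reads in NSPs, 68.3, 51.6 and 80.1 at 24 h, 29.6, 45.5 and 53.5 at 72 h and 33.5, 18.7, 19.8 and 38.6 at 1 week. Its log2 fold change was -2.47 ± 0.28 at 72 h and -3.11 ± 0.26 at 1 week. So close a neighbour is not independent of the choice, and these values are given without a test. The peak 2.3 kb above the gene, chr18:80989069-80989569, had 125.6, 218.6 and 223.9 in NSPs, 50.1, 54.6 and 78.8 at 24 h, 51.5, 52.6 and 42.1 at 72 h and 23.8, 32.7, 28.6 and 29.0 at 1 week. This peak fell with a log2 fold change of -1.90 ± 0.27 at 72 h (limma-trend adjusted p = 5.87e-07) and -2.65 ± 0.25 at 1 week (adjusted p = 1.74e-10), and NSPs lay wholly above all later stages at both peaks.

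The end of Sall3 that carries a peak, at chr18:80986516-80987016, had 796, 712 and 651 normalised reads in NSPs, 539.7, 645 and 532 at 24 h, 322, 362 and 385 at 72 h and 485, 429, 385 and 539 at 1 week. It is the only Sall3 peak within 1 kb of an end of that gene. NSPs lay wholly above the later stages and 72 h had the lowest mean. Against NSPs the log2 fold change was -1.01 ± 0.14 at 72 h (limma-trend adjusted p = 2.71e-07) and -0.65 ± 0.13 at 1 week (adjusted p = 4.85e-05). The 24 h value was -0.33, and -0.26 without NSP replicate 1. Over all peaks within 1 kb of a gene end, the median was -0.39 at 72 h and 0.01 at 1 week, and 53.7% fell at 72 h.

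Within the Sall3 gene body the picture was different. The 3 peaks lying 4.74, 5.74 and 6.82 kb from that end had NSP means of 94.4, 138 and 120.4 and 1 week means of 149, 165 and 176. The first rose at 72 h (0.76 ± 0.17, limma-trend adjusted p = 0.000342) and at 1 week (0.65 ± 0.16, adjusted p = 0.000687), the last rose at 1 week (0.55 ± 0.17, adjusted p = 0.00519), and the middle one was not called. Peaks 28.7 and 32.9 kb below Sall3, the latter at an end of Atp9b, also rose at 1 week, by 0.34 ± 0.13 and 0.36 ± 0.13. The other Sall3 peaks, 18.7, 26.5 and 78.4 kb above and 5.1 and 6.1 kb below the gene, all fell at 1 week against NSPs, with log2 fold changes from -1.88 to -0.60, except that with loess scaling the value 78.4 kb above was -0.49 and was not called. At the peaks 5.1 and 6.1 kb below, NSP replicate 1 (45.0 and 31.0) was within the range of, or next to, the later groups, whereas replicates 2 and 3 were at 80.6 and 85.1 and at 112 and 115.

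For Sall4, which spans chr2:168748332-168767201, no peak lay within 1 kb of an end of the gene, and the only peak in the gene body was low, at 36.7 ± 13.5 normalised reads in NSPs and 17.6 ± 9.31 at 1 week. It was called lower at 1 week (-1.12 ± 0.45, limma-trend adjusted p = 0.0304) but not without NSP replicate 1 (-0.87). Of the 7 peaks, 5 lie in the body of Atp9a, a phospholipid flippase gene next to Sall4. The furthest of them, 69.2 kb below Sall4 (chr2:168678856-168679356), held 68.3% ± 1.37 (SD, n = 3) of the reads at the Sall4 peaks in NSPs and 39.3% ± 1.32 (n = 4) at 1 week.

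Normalised reads at this Atp9a peak were 1438, 1325 and 1469 in NSPs, 904, 901 and 740.2 at 24 h, 407, 435 and 496 at 72 h and 444, 466, 420.3 and 503 at 1 week. NSPs, 24 h and 72 h do not overlap, while 72 h and 1 week do. The log2 fold change was -1.66 ± 0.12 at 72 h (limma-trend adjusted p = 9.75e-13) and -1.62 ± 0.11 at 1 week (adjusted p = 1.55e-13). The peak 45.9 kb below, in the same gene, went up instead, from 296 ± 81.7 in NSPs to 523 ± 30.2 at 1 week (0.85 ± 0.14, adjusted p = 5.38e-06). Of the remaining 4, those 22.1 and 14.1 kb below and 24.1 kb above Sall4 fell at 1 week, with log2 fold changes of -1.44, -1.30 and -0.77, and that 6.5 kb below, at an end of Atp9a, was not called.

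**Figure D2:**
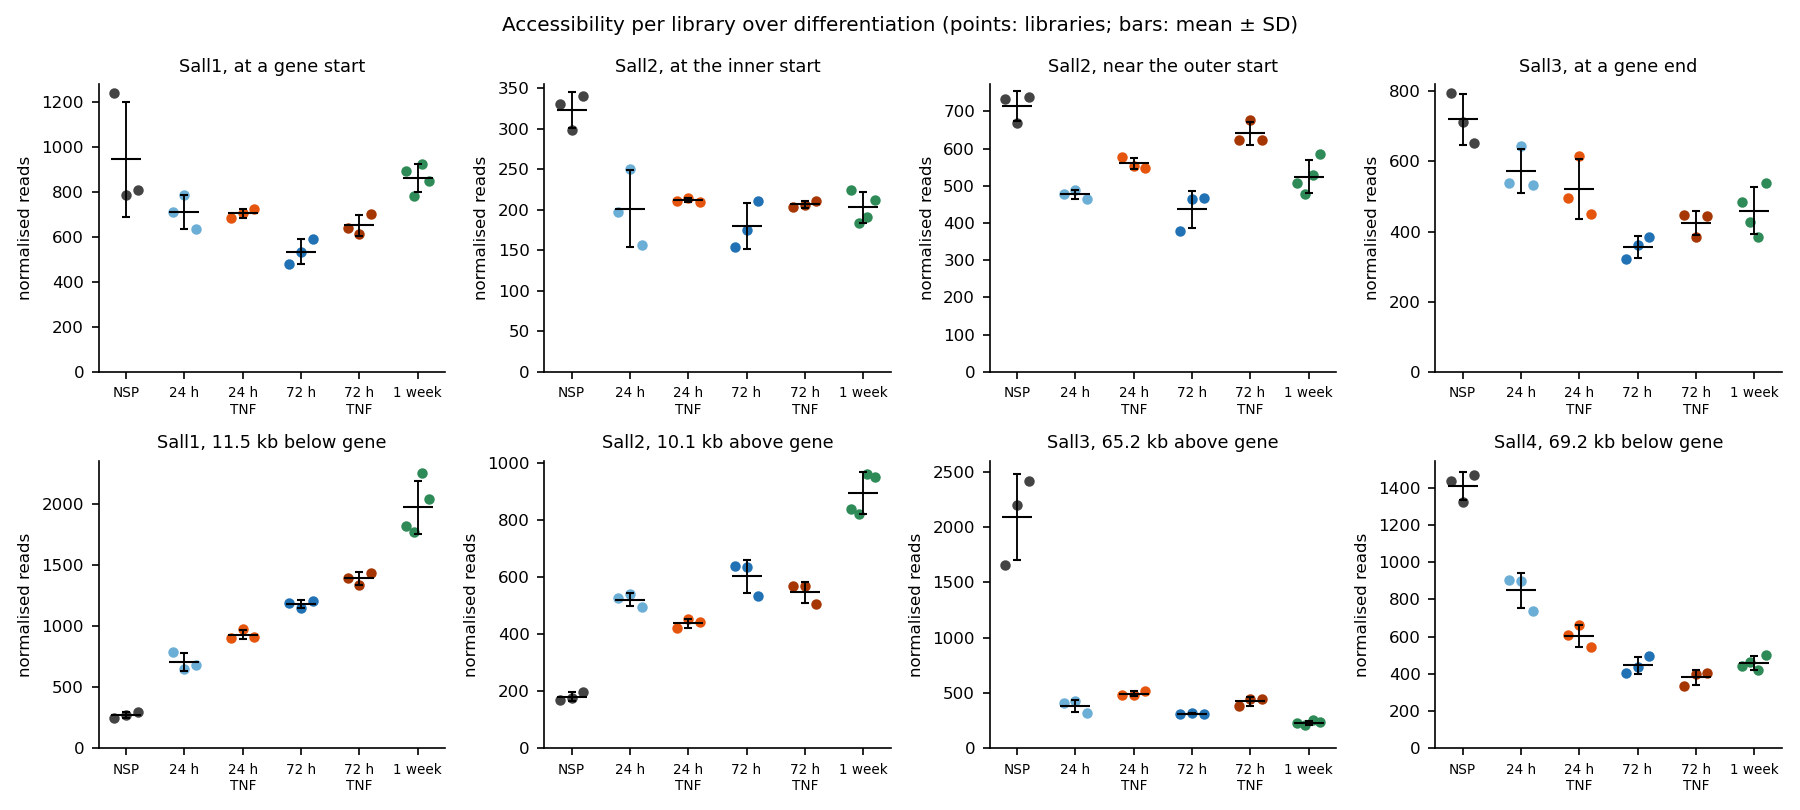
Normalised reads per library (y axis, points) with the group mean and SD (bars) for 8 Sall peaks in the 6 groups (x axis). The upper row shows peaks at or near gene starts or ends, all highest on average in NSPs. At the Sall1 start this rests on NSP replicate 1 (1239), as the other NSPs (786 and 809) were below the 1 week mean of 861. The lower row shows distal peaks, of which those 11.5 kb below Sall1 and 10.1 kb above Sall2 went up and those 65.2 kb above Sall3 and 69.2 kb below Sall4 went down.

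Maturation from 72 h to 1 week uses no library of the comparison from which the family was picked and lies within the tagged libraries. In this step 11 Sall peaks rose and 8 fell, beside 22.5% and 16.2% of all peaks, with a median log2 fold change of 0.07 over the Sall peaks and 0.02 over all. The split differed between settings. It was 3 higher and 15 lower with total reads scaling (8.95% and 33.8% of all peaks), 2 and 4 with loess scaling (13.0% and 11.6%), and 7 and 9 in edgeR's own fit with TMM (17.9% and 20.0%). The median of all peaks shifted by -0.33 with total reads and by -0.11 with edgeR. All 6 Sall2 calls and both Sall1 calls were rises, whereas Sall3 had 3 rises and 6 falls and Sall4 had 2 falls.

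The peak 11.5 kb below Sall1 went on rising in this step (0.73 ± 0.10, limma-trend adjusted p = 3.12e-06), as did that 10.1 kb above Sall2 (0.57 ± 0.11, adjusted p = 0.000125) and that 31.7 kb below Sall2 (0.60 ± 0.10, adjusted p = 2.24e-05, but -0.06 with loess scaling). The distal Sall3 peak fell further, from 314 ± 6.70 (SD, n = 3) to 231 ± 19.8 (n = 4), a log2 fold change of -0.45 ± 0.12 (adjusted p = 0.00565), with no overlap, and this call held in all the settings tried. Among the Sall3 peaks the largest fall was 78.4 kb above the gene, from 32.2, 41.9 and 45.9 at 72 h to 15.9, 20.3, 11.0 and 15.0 at 1 week (-1.32 ± 0.34, adjusted p = 0.00311), a peak with as few as 5 reads in a library. At Sall4 it was 22.1 kb below, from 65.6, 55.0 and 54.8 to 28.2, 28.8, 37.4 and 44.0 (-0.76 ± 0.23, adjusted p = 0.0103), which was not called without 72 h replicate 1 (-0.67). With loess scaling the rises 11.5 kb below Sall1 and 10.1 kb above Sall2 and the fall 78.4 kb above Sall3 were not called (0.19, 0.19 and -0.86), and with total reads scaling that above Sall2 was not (0.23). Rises at the peak near the outer Sall2 start (0.27, adjusted p = 0.0402) and at the Sall3 end (0.36, adjusted p = 0.0263) changed sign with loess scaling, to -0.14 and -0.02, and the former also with total reads, to -0.08. Both calls were also lost without 72 h replicate 1 (0.17 and 0.29) or 1 week replicate 1 (0.28 and 0.33) or 4 (0.21 and 0.28), that near the Sall2 start without 1 week replicate 3 (0.26), and that at the Sall3 end without 72 h replicate 2 (0.37).

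The counts of Sall peaks called with TNF were near the shares over all peaks. At 24 h, 4 rose and 2 fell with TNF, beside 7.06% and 3.53% of all peaks, and at 72 h 5 rose and none fell, beside 6.24% and 5.55%. Median log2 fold changes of the 44 peaks were -0.01 at 24 h and 0.06 at 72 h, and -0.03 and 0.03 over all peaks. No peak had an unadjusted p under 0.05 for a fall at 72 h by limma-trend or DESeq2 and 1 had by edgeR. Neither edgeR nor DESeq2 called a fall, whereas with loess scaling 4 rose and 1 fell (5.98% and 5.87% of all peaks). The library tag is the same in both groups of each of these comparisons. The astrocyte marker sum was lower with TNF, at 1396 to 1584 against 1750.2 to 2053 without it at 24 h and at 1443 to 1541 against 2018 to 2139 at 72 h, and its part in these results was not tested.

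At both times 2 peaks rose with TNF, those 5.9 kb below Sall1 and 5.1 kb below Sall3. The Sall1 peak had 94.5, 69.3 and 116 normalised reads without and 243, 185 and 196 with TNF at 24 h, and 233, 254 and 273 without and 417, 358 and 470.5 with TNF at 72 h. Treated libraries lay wholly above untreated ones at both times. The log2 fold change was 1.17 ± 0.18 at 24 h (limma-trend adjusted p = 5.44e-05) and 0.71 ± 0.18 at 72 h (adjusted p = 0.00949), the latter not called without 72 h replicate 1 (0.65) or without replicate 3 of the TNF-treated 72 h libraries (0.61). Its untreated level at 1 week, 237 ± 9.02, was below its treated level at 72 h, 415 ± 56.4.

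The Sall3 peak 5.1 kb below the gene, chr18:80961656-80962156, had 71.7, 56.1 and 77.6 normalised reads without and 130.0, 159 and 169 with TNF at 24 h, and 51.5, 59.8 and 52.3 without and 111, 191 and 143 with TNF at 72 h. The groups do not overlap at either time. TNF gave a log2 fold change of 1.15 ± 0.26 at 24 h (limma-trend adjusted p = 0.00376) and 1.39 ± 0.26 at 72 h (adjusted p = 0.000559). Without TNF this peak fell from 72 h to 1 week (-0.66 ± 0.25, adjusted p = 0.0347), a call that was lost on leaving out any 1 of the 72 h libraries (-0.70 to -0.59) or 1 week replicate 1 (-0.66), 2 (-0.66) or 4 (-0.49). The window next to it, 6.1 kb below Sall3 and 470 bp away, had 38.3 ± 3.01 without and 36.5 ± 8.43 with TNF at 24 h and was not called at either time.

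**Figure D3:**
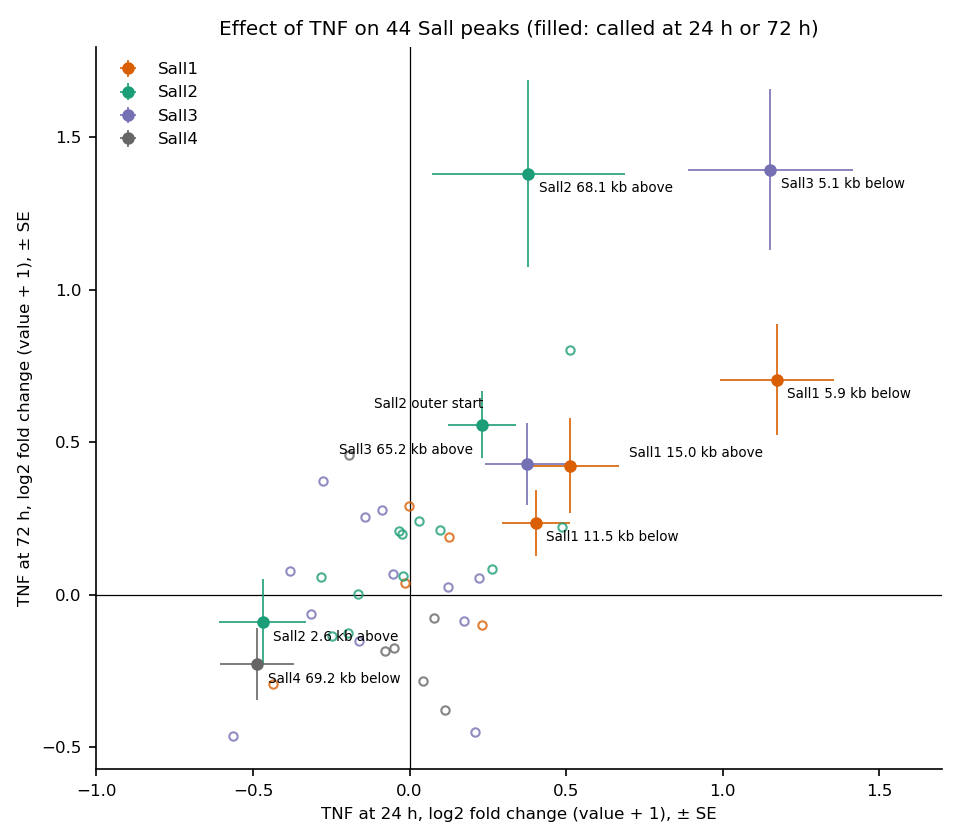
Log2 fold change with TNF at 24 h (x axis) and at 72 h (y axis), on log2 of value + 1, for the 44 Sall peaks, coloured by gene. Filled points with SE bars were called at 24 h or 72 h, and the peaks 5.9 kb below Sall1 (1.17 and 0.71) and 5.1 kb below Sall3 (1.15 and 1.39) are those called at both times.

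A further 3 Sall peaks rose with TNF at 72 h. Near the outer Sall2 start, normalised reads were 379.6, 464 and 468 without and 623, 677 and 624 with TNF at 72 h, wholly apart, a log2 fold change of 0.56 ± 0.11 (limma-trend adjusted p = 0.000863). The treated mean at 72 h, 641 ± 30.8, lay between those of untreated 72 h cells, 437 ± 49.9, and NSPs, 714 ± 39.9. The low peak 68.1 kb above Sall2 (chr14:52396563-52397063) had 36.0, 43.1 and 31.9 without and 84.0, 114 and 96.0 with TNF, which is 1.38 ± 0.31 on the log2 scale (adjusted p = 0.00288). At the distal Sall3 peak they were 314, 321 and 307 without and 378, 445 and 449 with TNF (0.43 ± 0.13, adjusted p = 0.0331), and the call was lost with total reads or loess scaling (0.35 in both) and on leaving out any untreated 72 h library or TNF-treated replicate 2 or 3, with values from 0.39 to 0.44.

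At 24 h the distal Sall3 peak had 408, 423 and 319 without and 482, 478 and 521 with TNF. The log2 fold change was 0.37 ± 0.13. These untreated libraries took part in the comparison that picked the peak for its low values at 24 h. That choice favours a rise with TNF, so the value is given without a test. Compared with the NSP mean of 2090.0, the means with TNF were 494 at 24 h and 424 at 72 h.

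At 24 h only, by calls, 2 more Sall1 peaks rose. The peak 11.5 kb below the gene had 789, 648 and 679 normalised reads without and 903, 975 and 913 with TNF (0.40 ± 0.11, limma-trend adjusted p = 0.0132), and 1190.3, 1145 and 1207 and 1397, 1336 and 1438 at 72 h (0.24 ± 0.11, adjusted p = 0.167). The 24 h call was lost without 24 h replicate 2 (0.34) or without replicate 2 of the TNF-treated 24 h libraries (0.37). The peak 15.0 kb above had 213, 189 and 239 without and 309, 299.5 and 303 with TNF (0.51 ± 0.16, adjusted p = 0.0304), and 0.42 ± 0.16 at 72 h (adjusted p = 0.076). Treated and untreated libraries do not overlap at 24 h in either. Both falls at 24 h were of modest size. The peak 2.6 kb above Sall2 had 237, 286 and 287 without and 174, 204 and 206 with TNF (-0.47 ± 0.14, adjusted p = 0.0269), and the Sall4 peak 69.2 kb below the gene had 904, 901 and 740.2 and 609, 662 and 543 (-0.49 ± 0.12, adjusted p = 0.00647). Neither fall was called without replicate 3 of the TNF-treated 24 h libraries, at -0.51 and -0.41. The Sall2 fall was also lost without 24 h replicate 2 (-0.42) or 3 (-0.42) or TNF-treated replicate 1 (-0.39).

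**Figure D4:**
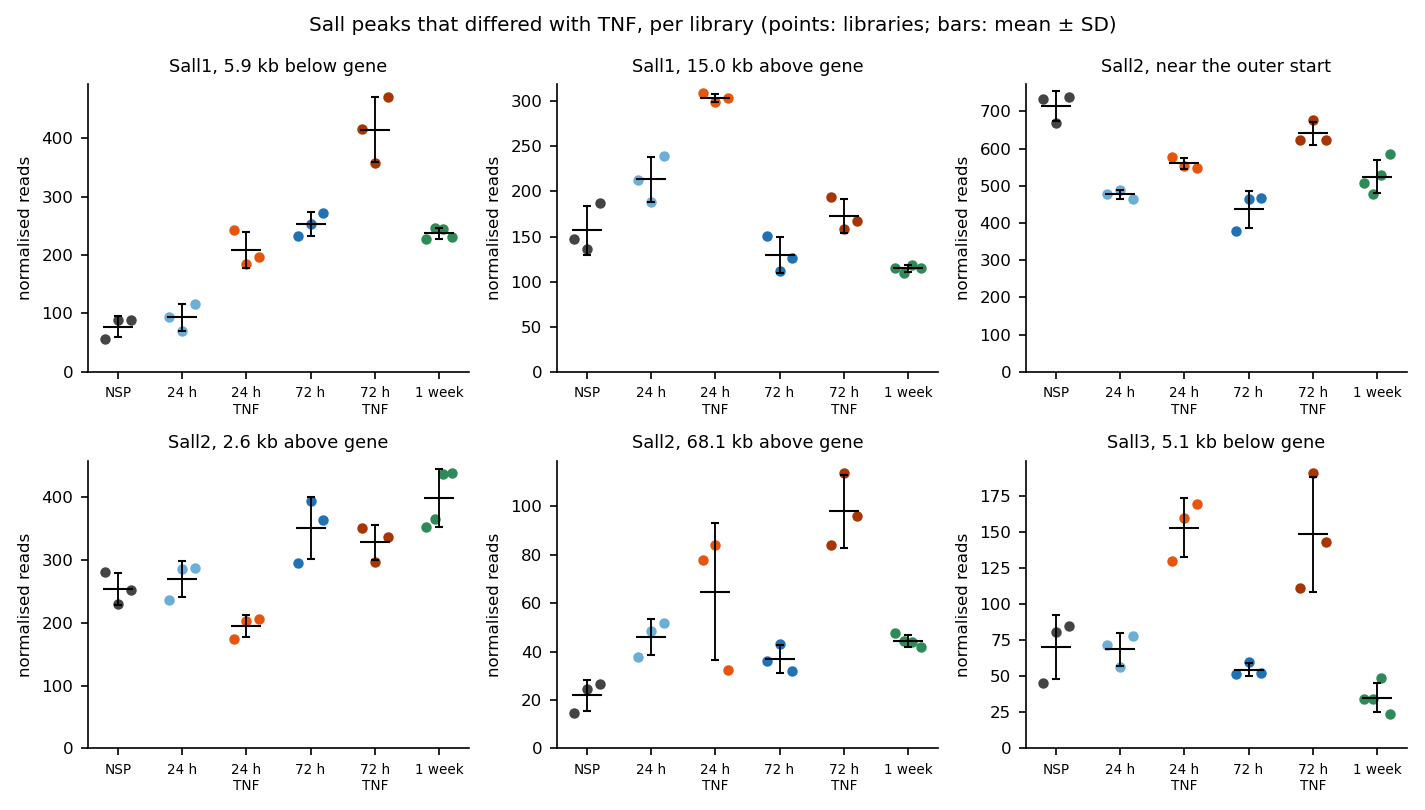
Normalised reads per library (y axis, points) with the group mean and SD (bars) in the 6 groups (x axis) for 6 Sall peaks called with TNF at 24 h or 72 h. The treated libraries lie above the untreated ones of the same time for the peaks 5.9 kb below Sall1 and 5.1 kb below Sall3 at both times, and below them for the peak 2.6 kb above Sall2 at 24 h.

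Whether the effect of TNF differed between 24 h and 72 h was tested as an interaction. No Sall peak was called by limma-trend, beside 0% of all peaks called higher at 72 h than at 24 h and 0.00112% called lower, and 3 of the 44 had an unadjusted p under 0.05, against 1 with edgeR and 2 with DESeq2, which also called none. The lowest p was at the peak 68.1 kb above Sall2, where TNF changed the value by 0.38 ± 0.31 at 24 h and 1.38 ± 0.31 at 72 h, a difference of 1.00 ± 0.43 (unadjusted p = 0.0286, limma-trend adjusted p = 0.626). Replicate 3 of its TNF-treated 24 h libraries, at 32.2, was far below the others at 77.8 and 84.0. Calls at 1 time only, as above, are therefore not shown to be differences between times.

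Across the 19 libraries, several Sall peaks varied alongside the distal Sall3 peak, which is a description because the libraries share depth and stage. Pearson's r of log2 values with it was 0.93 for the peak 63.9 kb and 0.92 for that 2.3 kb above Sall3, 0.88 for that 15.2 kb above Sall2 and 0.87 for that 29.1 kb above Sall1. It was -0.96 for the peak 10.1 kb above Sall2 and -0.91 for that 11.5 kb below Sall1. Among 12381 peaks within 1 kb of an end of another gene, those most like the distal Sall3 peak over the 19 libraries were at Cd72, Hes3 and Prr18 (r = 0.97 each). For the Sall1 start they were at Pgrmc2, Yy1 and D11Wsu47e (r = 0.97 each), for the inner Sall2 start at Cd24a, Pknox2 and Asap1 (0.92 each), for the peak near the outer Sall2 start at Trib1 (0.93), Eda2r (0.91) and Kif23 (0.91), and for the Sall3 end at Cdk14 (0.96), Pard6g (0.96) and Ube2ql1 (0.95).

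The genes of the NuRD complex, the corepressor that Sall proteins recruit, were read at their ends. Of 13 genes, 12 had a peak within 1 kb of an end, and Chd3 had none. At 72 h none rose and 11 fell against NSPs, among 13342 such gene-end peaks of which 9.62% rose and 53.7% fell, and from 72 h to 1 week 11 rose and none fell, beside 54.0% and 6.12%. The median log2 fold change was -0.62 and 0.65 in these steps, and -0.39 and 0.39 over all gene-end peaks. The deacetylase genes Hdac1 and Hdac2 fell at 72 h (-0.65 and -0.70) and rose from 72 h to 1 week (0.59 and 0.68). With loess scaling 6 fell at 72 h and 3 rose afterwards, and with total reads scaling 9 fell and 9 rose. Of all peaks, 27.2% fell and 13.0% rose in these steps with loess, and 20.8% and 8.95% with total reads. The shares of gene-end peaks with these scalings were not computed. With TNF none of the 12 was called by limma-trend, edgeR or DESeq2 at 24 h (1.97% of gene-end peaks rose and 0.854% fell) or at 72 h (3.29% and 1.45%), and the number with an unadjusted p under 0.05 was 0 at 24 h by each tool and, at 72 h, 2 by limma-trend and DESeq2 and 0 by edgeR. In the steps over time, too, edgeR and DESeq2 called none in the direction in which limma-trend called none, and none there had an unadjusted p under 0.05.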

How the data were processed

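ATAC-seq was measured in 19 libraries, grouped by GEO's titles. Per the submitters' processing notes and the study's methods, the authors used FastQC, Trim Galore, Bowtie2, SAMtools and MACS2 with mm10 (GRCm38), removed blacklisted regions and built a consensus peak set with DiffBind. Tool versions are not given in the sources used here. The deposited table is 1 signal value per peak and library, reads in the peak divided by a size factor of the library, and replicates were not pooled. Every value is a whole multiple of the value of 1 read (100% within 0.001), so reads were recovered. Depth is given as recovered reads in peaks, and peaks with few reads carry more counting error.

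Because the values are normalised, the main test was limma-trend from limma 3.58.1 in R 4.3.3, on log2(value + 1) over all 6 groups, two-sided, with Benjamini-Hochberg adjustment over all peaks tested. Fold changes are on this scale and understate those of low peaks. Low peaks were left out with edgeR's filterByExpr at a minimum count of 10, which kept 88919 and removed 1235. Alternatives were edgeR 4.0.16 and DESeq2 1.42.0 on the recovered reads, other scalings, filters and pseudocounts, and leaving out each replicate. On the recovered reads edgeR called 22561 peaks higher and 20131 lower at 24 h than in NSPs. Only the limma-trend fit, for 24 h against NSPs, was tested on simulated data.

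The Sall genes, the marker lists and the tests were chosen with earlier results of these data known. The peaks given by library were those at gene starts or ends, the distal Sall3 peak and, for each gene and comparison, the called peak without overlap between groups that changed most, 15 in all. Other peaks with values were named after their values were seen. Columns of other samples in the table numbered 0.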

Additional observations from a re-analysis of the deposited data

Results flagged for a closer look

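In the only group of 4 libraries, 1 week, the highest or lowest library was tested for a gap to the others at each of the 44 Sall peaks, and 3 had one above Dixon's 95% critical value. Chance gives about 1 in 20. At the peak 53.3 kb below Sall2, at an end of Chd8, 1 week replicate 3 had 1855 normalised reads, against 1613 to 1649.7 in the others. At the peak 18.7 kb above Sall3, the same library, which was the shallowest of the series, had 405, against 317 to 331. At the low peak 26.5 kb above Sall3, 1 week replicate 2 had 34.3, against 23.6 to 24.7.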

How the results depend on the processing

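For the 15 peaks given by library, 57 called values were recomputed under each alternative, giving 822 values. Of these, 738 kept their direction and call, 79 lost the call and 5 changed sign, and 35 of the 57 kept direction and call in every setting. The sign changes were all between NSPs, 72 h and 1 week. For 1 week against 72 h, the peak near the outer Sall2 start went to -0.076 with total reads and -0.14 with loess scaling, that 31.7 kb below Sall2 to -0.064 with loess and that at the Sall3 end to -0.018 with loess, and for 72 h against NSPs the peak 31.7 kb below Sall2 went to 0.12 with loess. The number called lower at 24 h went from 18 to 11 with total reads. From 72 h to 1 week, the number called higher went from 11 to 3 with total reads, 2 with loess and 7 with edgeR's TMM. That called lower went from 8 to 15 with total reads, 4 with loess and 5 with a reach of 50 kb. It was 5 with only the compared groups in the fit (15.8% of all peaks) and 4 to 7 on leaving out 1 replicate (12.1% to 15.8%). With TNF at 24 h, leaving out 1 replicate gave 2 to 4 higher (4.34% to 6.33% of all peaks) and 0 to 2 lower (1.72% to 2.81%). The reach of 50 kb gave 1 lower. With TNF at 72 h, leaving out 1 replicate gave 3 to 5 higher (4.05% to 4.79% of all peaks). The reach of 50 kb gave 3 higher, and loess 1 lower where there had been 0. The causes were not tested. DESeq2 called 17 peaks higher and 70 lower of all peaks for the interaction of TNF with time, against 0 and 1 by limma-trend, none of them a Sall peak. The adjusted p of the Sall peak with the lowest p ranged from 0.326 to 0.898 over the settings.

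Replicate numbers were taken from the sample titles. In 0 of 15 pairs of groups were all correlations of their deviations over 0.1, and the correlations ran from -0.04 to 0.11. The names of the TNF-treated 72 h libraries carry the numbers 2, 3 and 4 where the titles have 1, 2 and 3, so pairs with that group are in doubt, and 11 correlations by the numbers in the names ran from -0.02 to 0.08. By either numbering the samples were taken to share only a number. With the replicate block, 5 Sall peaks were called higher and 18 lower at 24 h against NSPs (24.1% and 22.7% of all peaks). The counts were 9 and 18 at 72 h (28.2% and 30.7%) and 15 and 20 at 1 week (32.3% and 32.2%) against NSPs. They were 9 and 7 from 72 h to 1 week (20.8% and 14.4%), 4 and 2 with TNF at 24 h (6.95% and 3.38%) and 5 and 0 with TNF at 72 h (6.02% and 5.30%). Depth limits the lowest peaks, where 3 of the 44 had fewer than 10 reads in some library.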
